A study of Arabidopsis thaliana with 10 samples.

Results

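Seedlings of Arabidopsis thaliana that lack phytochrome A were compared with wild-type seedlings that went into white light without a far-red pretreatment. The phyA side consisted of both arrays of the phyA-null mutant, 1 from seedlings given far-red light ahead of white light (phyA_FR) and 1 from seedlings not given it (phyA_D), treated as 1 group of 2. The other side was WT_D, 2 arrays of wild type Col-0 without far-red light, so 4 of the 10 arrays of the series were compared. The labels pair the letter D with seedlings that had no far-red light and do not say what D stands for. Each array was hybridised with RNA from a pool of 300 whole young seedlings, with cotyledons, hypocotyl and primary root, grown at 22 °C in continuous light.

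The groups differed in more than genotype. The labels give Col-0 as the ecotype of wild type and, in the same field, only the mutation for phyA, so whether the mutant is in the Col-0 background is not stated, and a difference of ecotype cannot be told apart from the mutation. The labels list 1.5% sucrose for both WT_D arrays and no sucrose for both phyA arrays, and WT_D replicate 2 also has 5 µM norflurazon, an inhibitor of carotenoid synthesis. Genotype and sucrose can therefore not be told apart in any difference between phyA and WT_D. phyA_FR and phyA_D are single arrays, so the effect of far-red light within the mutant has no replicate. The 6 remaining arrays were WT_FR (wild type, far-red light, no sucrose), gun1gun5_D and gun1gun5_FR (a mutant of both GUN1 and GUN5, without and with far-red light, no sucrose), with 2 arrays each. They helped to set the spread between arrays, and their values are given where they place a result.

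Phytochrome A is the photoreceptor through which plants sense continuous far-red light and very weak light. It is made in the cytosol, moves into the nucleus with the help of the carrier proteins FHY1 and FHL, and there alters transcription through factors such as HY5 and HYH. It accumulates in dark-grown seedlings and is degraded in white light, where phytochrome B and the cryptochromes take over much of the control of greening. Sucrose is itself a signal in seedlings: it represses genes for the use of alternative fuels and promotes genes for storage and pigment synthesis.

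Expression was measured on Affymetrix ATH1 arrays as linear probe-set intensities, each array having been scaled to a trimmed mean of about 100. Differences are log2(intensity + 16) in phyA minus WT_D with their standard error (SE) from limma, and a probe set passed at a Benjamini-Hochberg adjusted p under 0.05 over all 22746 probe sets other than controls. The addition of 16 makes differences smaller where signal is low, and folds below are ratios of intensities with 16 added. With 2 arrays a side precision is low throughout. No label states that replicates were separate cultures, so the spread behind the p-values may be technical. An exact permutation test of 2 arrays against 2 cannot go below a two-sided p of 0.333.

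Before any gene is considered, the size of the contrast can be set against the spread within each group. Over all probe sets the median absolute log2 difference was 0.142 between phyA_FR and phyA_D, and 0.145 between the WT_D replicates. The mean of phyA differed from WT_D replicate 1 by a median absolute 0.149 and from replicate 2 by 0.138. Between the phyA mean and the WT_D mean it was 0.123. A mean of 2 arrays varies less than a single array, so these sizes cannot be ranked directly against those within a group. The median signed difference over all probe sets was 0.0027, so the distributions were centred on each other. The 25S ribosomal RNA control had intensities of 2090.2 and 2444.9 on the phyA arrays, against 775.5 and 314.8 on the WT_D arrays. The 3′ to 5′ signal ratio of the actin control was 3.65 and 4.25 in phyA, against 1.94 and 2.13 in WT_D, and that of the GAPDH control was 1.67 and 1.34 in phyA, against 1.08 and 1.05 in WT_D. All of these control values were higher on both phyA arrays than on both WT_D arrays, and their part in the results was not tested.

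In total 8 probe sets passed, which is 0.0352% of those tested, with 4 higher (0.0176%) and 4 lower in phyA. At an unadjusted p under 0.05 there were 2392 probe sets (10.5%), 1198 higher and 1194 lower, where uniform p-values would give 1137. A single one of the 8 carries a gene name in the array annotation used here, and the other 7 are not listed with a gene. PHYA has no listed probe set either, so the mutated gene could not be checked by name.

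**Figure D1:**
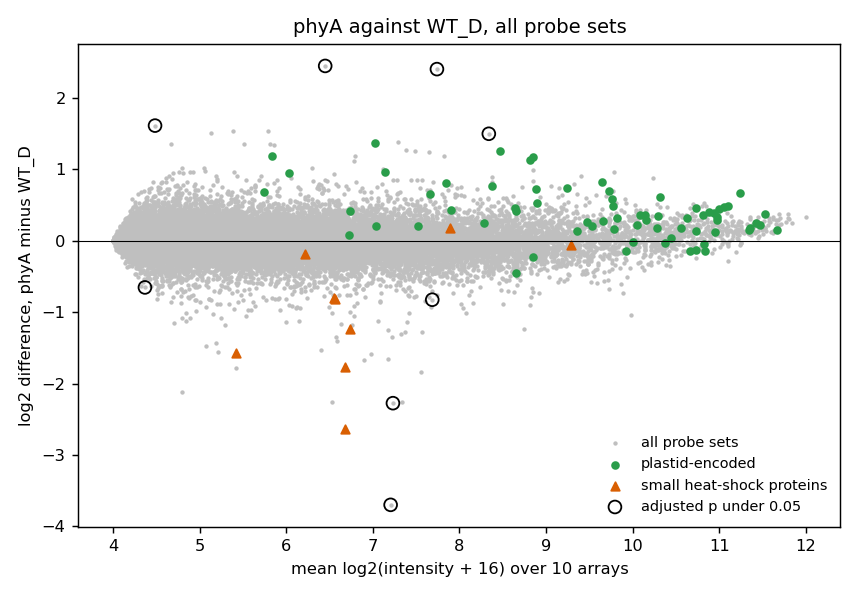
Difference between phyA and WT_D (log2, y axis) against the mean level over the 10 arrays (log2(intensity + 16), x axis) for each of the 22746 probe sets. Plastid-encoded genes (green circles) lie mostly above 0 and small heat-shock protein genes (orange triangles) mostly below it, while the open rings mark the 8 probe sets that passed.

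The largest difference belonged to the unlisted probe set 264508_at. It had intensities of 1.4 and 1.4 on the phyA arrays, against 220.8 and 199.3 on the WT_D arrays. The phyA values were near the bottom of the scale, while the 6 arrays of the other groups gave between 174.5 and 292.5. It fell by at least 13.1-fold in phyA, counted from the WT_D mean to a floor intensity of 16 (log2 difference -3.70 ± 0.14 SE, limma adjusted p = 5.1e-05). It also passed in each of the 14 alternative analyses.

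The unlisted probe set 261838_at had 34.4 and 46.9 in phyA, against 338.8 and 193.1 in WT_D, and fell 4.84-fold (-2.27 ± 0.25, adjusted p = 0.0437). Its low level was shared with gun1gun5_D, which gave 41.7 and 47.5, whereas WT_FR gave 1542.3 and 1155.5. Low values were thus seen in both mutants and not in either wild-type group. AT5G01010, the named gene among the 8, had 101.0 and 105.2 in phyA, against 204.4 and 186.1 in WT_D, and fell 1.77-fold (-0.83 ± 0.09, adjusted p = 0.0437). The gun1gun5_D arrays gave 166.6 and 184.9 for it and the WT_FR arrays 267.9 and 257.6, so both phyA arrays were below each array of these groups. It no longer passed in 7 of the 14 alternatives, among them those without WT_D replicate 1 (adjusted p = 0.171), phyA_FR (0.209) or phyA_D (0.112). The last of the 4 that fell, also unlisted, was under 16 on all 4 arrays and is given no fold.

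Among the 4 that rose, the unlisted probe set 259224_at had 1023.5 and 923.3 in phyA, against 151.6 and 192.1 in WT_D. This was a rise of 5.29-fold (2.40 ± 0.15, adjusted p = 0.0014). The unlisted 261065_at had 374.7 and 428.0 in phyA, against 71.2 and 50.8 in WT_D, and rose 5.46-fold (2.45 ± 0.24, adjusted p = 0.0256). The other two, unlisted as well, had 878.8 and 1067.0 in phyA against 299.6 and 368.8 in WT_D, and 44.3 and 35.4 in phyA against 3.5 and 1.0 in WT_D. Each of the 4 was also higher on both phyA arrays than on all gun1gun5_D and WT_FR arrays. The fit counted the difference between phyA_FR and phyA_D as spread, which favours probe sets where that difference is small. In the 8 it was -0.32 to 0.23 on the log2 scale.

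**Figure D2:**
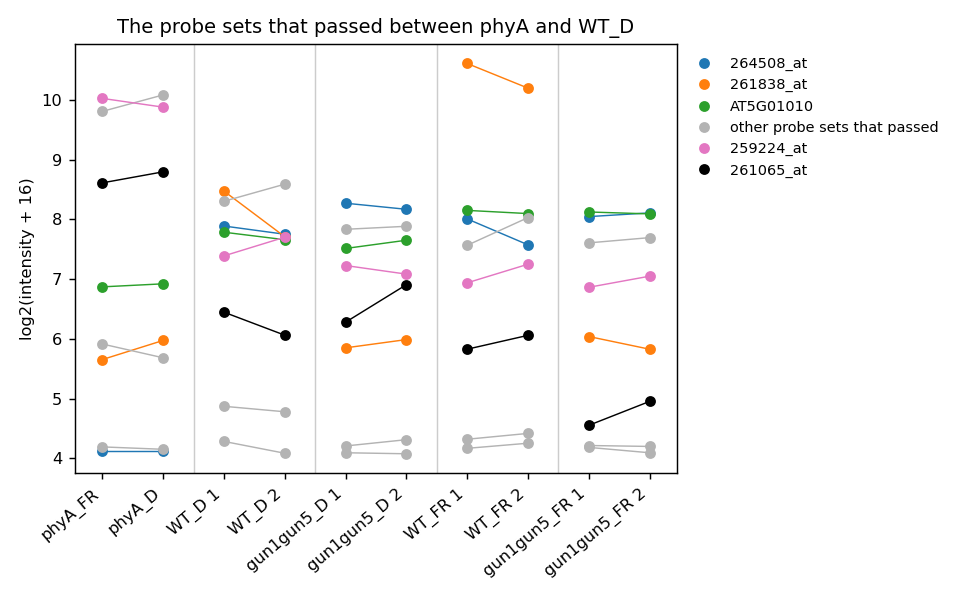
Level of each probe set that passed (log2(intensity + 16), y axis) on the phyA, WT_D, gun1gun5_D, WT_FR and gun1gun5_FR arrays (x axis), with lines joining the 2 arrays of a group. The phyA arrays stand apart from WT_D in all 8, and for 261838_at they lie at the level of the gun1gun5 arrays.

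The number that passed changed strongly with a filter on mean level. When probe sets below the 40th percentile of mean level were left out, 61 of 13647 passed, 22 higher (0.161%) and 39 lower (0.286%), and 6 of the 8 were among them. The filter also took the prior degrees of freedom of limma from 3.4 to 6.57, and what raised the count was not tested. Named genes that passed there and not in the full table include 6 plastid genes. The filter takes the mean over all 10 arrays at a log2 level of 5.35, and for 9 of the 61 the mean of phyA (5) or of WT_D (4) lay below that level, so these were kept through arrays where they are higher. Where a gene has 2 adjusted p-values below, the second is the one with this filter. Leaving out WT_D replicate 2, the array with norflurazon, gave 42 probe sets, 6 higher and 36 lower, with all 8 among them. Without WT_D replicate 1, phyA_FR or phyA_D, 3 of the 8 passed in each case.

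Plastid-encoded transcripts lay mostly above WT_D. The chloroplast genome codes for the core of both photosystems, for the cytochrome b6f and ATP synthase complexes, for the NDH complex that cycles electrons around photosystem I, and for part of the machinery that transcribes and translates it. None of its 69 measured genes passed (0 of 69 by limma, with 35 higher and 1 lower at an unadjusted p under 0.05), and 60 had a difference above 0. Both phyA arrays lay above both WT_D arrays for 53 genes and below for 4, against 20.0% above and 19.0% below among all probe sets. The median difference of the 69 was 0.34, and it was alike on the phyA_FR array (0.34) and the phyA_D array (0.31), and against WT_D replicate 1 (0.42) and replicate 2 (0.28). A shift in this direction was not particular to phyA: gun1gun5_D minus the same WT_D arrays gave a median of 0.26. By class that median was 0.18 for ribosomal proteins and polymerase, 0.24 for photosynthesis and 0.36 for NDH. The phyA medians of these classes were 0.53, 0.23 and 0.38.

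Genes of the plastid gene-expression machinery had the largest differences. Of 19 genes for ribosomal proteins and the plastid RNA polymerase, 17 lay above in both phyA arrays (89.5%, against 20.0% of all probe sets). In both arrays 1 lay below (5.26%, against 19.0%), and the median was 0.53. With the low probe sets left out, 3 of the 19 passed: rps15, rpl20 and rpl14. Of all probe sets tested there, 0.161% passed as higher. rps15, a protein of the small ribosomal subunit, had 335.3 and 262.9 in phyA, against 93.4 and 117.7 in WT_D (1.37 ± 0.19, adjusted p = 0.0708 in the full table and 0.0118 with the filter). rpl20, of the large subunit, had 731.0 and 584.8 in phyA, against 241.6 and 290.5 in WT_D (1.25 ± 0.18, adjusted p = 0.0777 and 0.0135). For both genes both phyA arrays were well above both WT_D arrays.

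rpl14, also of the large subunit, had 1008.8 and 944.2 in phyA, against 421.4 and 429.0 in WT_D (1.17 ± 0.24, adjusted p = 0.158 and 0.0473). The subunits of the plastid RNA polymerase had smaller differences of 0.46 for rpoC2, 0.53 for rpoA, 0.58 for rpoC1 and 0.69 for rpoB. All 4 polymerase genes lay above in both phyA arrays, and none passed with or without the filter. rps4, the most strongly expressed of the 19, had 2426.0 and 2090.3 in phyA, against 1618.8 and 1682.0 in WT_D (0.44 ± 0.11, adjusted p = 0.226). rps18 lay below, with 307.9 and 280.5 in phyA, against 370.3 and 451.8 in WT_D (-0.46 ± 0.18, adjusted p = 0.421).

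Plastid genes of the photosynthetic complexes were closer to WT_D. Of 35, 24 lay above in both phyA arrays (68.6%, against 20.0% of all probe sets) and 3 below (8.57%, against 19.0%). The median was 0.23. With the filter 2 passed, psbA and ycf3, where 0.161% of all tested probe sets passed as higher. psbA, the reaction-centre protein D1 of photosystem II, had 3067.3 and 2774.6 in phyA, against 1852.4 and 1819.3 in WT_D (0.66 ± 0.11, adjusted p = 0.0914 and 0.0135). ycf3, an assembly factor of photosystem I, had 734.6 and 592.2 in phyA, against 258.7 and 329.9 in WT_D (1.13 ± 0.19, adjusted p = 0.11 and 0.0329). rbcL, the large subunit of Rubisco, had 982.5 and 962.3 in phyA, against 529.9 and 666.2 in WT_D (0.70 ± 0.16, adjusted p = 0.213). In contrast, psaA had 1657.2 and 1567.1 in phyA, against 1732.2 and 1814.1 in WT_D, and psaC and psbT likewise lay below in both phyA arrays. atpB, the most strongly expressed plastid gene, had 3416.0 and 3609.9 in phyA, against 3124.2 and 3178.8 in WT_D (0.16 ± 0.10, adjusted p = 0.652).

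Of 10 NDH genes, 7 lay above in both phyA arrays (70%, against 20.0% of all probe sets) and the rest overlapped, with a median of 0.38. ndhJ had 811.8 and 924.0 in phyA, against 487.7 and 541.8 in WT_D (0.73 ± 0.12, adjusted p = 0.105 and 0.0397 with the filter). ndhF had 76.3 and 74.9 in phyA, against 28.7 and 20.4 in WT_D (1.18 ± 0.36, adjusted p = 0.317). ndhI, the most strongly expressed of the complex, had 1771.0 and 2302.2 in phyA, against 1752.1 and 1970.8 in WT_D, and the groups overlapped. Among genes outside these classes, accD, a subunit of the enzyme that starts fatty acid synthesis, had 1714.9 and 1503.9 in phyA, against 928.5 and 1179.2 in WT_D (0.61 ± 0.14, adjusted p = 0.2).

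**Figure D3:**
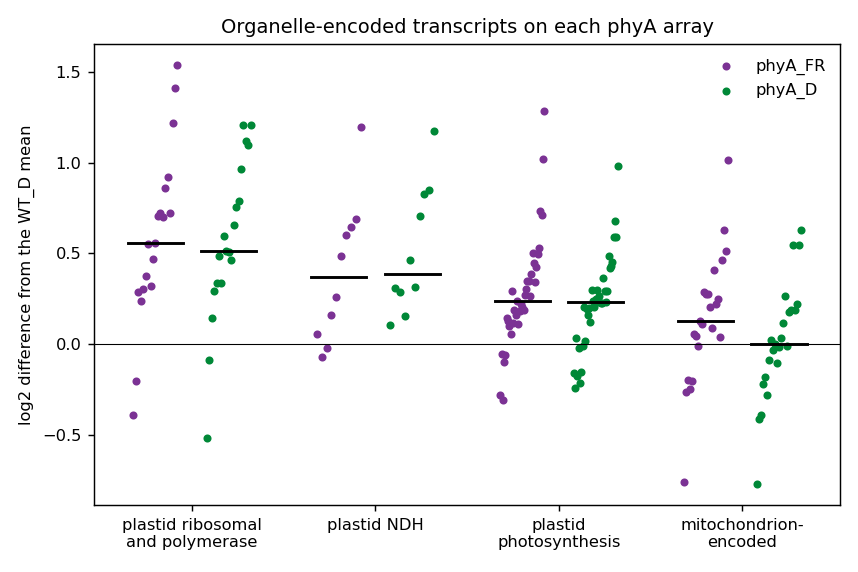
Log2 difference of each organelle-encoded gene from the WT_D mean (y axis), on phyA_FR (purple) and phyA_D (green), by class of gene (x axis), with bars at the medians. The plastid ribosomal and polymerase genes have medians near 0.5 on both arrays, while mitochondrion-encoded genes scatter around 0.

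The plastid levels were set beside the 25S rRNA control, and they rose together with it in some groups only. On the 2 gun1gun5_D arrays the median level of the 19 ribosomal and polymerase genes was 8.78 and 9.49, with a median over the genes of -0.44 for replicate 1 minus replicate 2, and the 25S rRNA control was 376.7 and 3003.8. The phyA arrays had median levels of 9.58 and 9.64 for these genes, against 8.72 and 8.87 for WT_D. The WT_FR replicates, with 25S rRNA at 494.1 and 2367.6, had nearly equal median levels of 8.92 and 8.94. In gun1gun5_FR the replicate with more 25S rRNA had the lower median (903.7 with 8.69, and 1790.6 with 8.48). The same held within WT_D (775.5 with 8.72, and 314.8 with 8.87). High 25S rRNA was therefore paired with a high median on 3 arrays (both phyA arrays and gun1gun5_D replicate 2) and not on WT_FR replicate 2 or gun1gun5_FR replicate 2. Targets for these arrays were primed with an oligo(dT) primer, and plastid transcripts largely lack poly(A) tails. The 5S rRNA control was 28.8 and 31.9 on the phyA arrays and between 1.5 and 10.7 on all others, with 1.5 on gun1gun5_D replicate 2. The part of RNA quality and priming in the plastid differences was not tested.

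**Figure D4:**
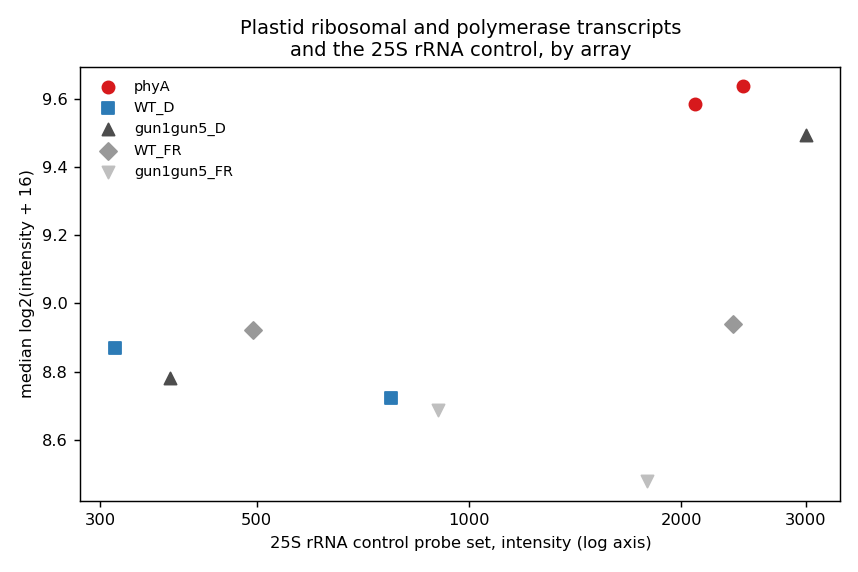
Median level of the 19 plastid ribosomal and polymerase genes (log2(intensity + 16), y axis) against the intensity of the 25S rRNA control (log axis, x axis), 1 point per array. Both phyA arrays and 1 gun1gun5_D array lie at the top right, and the WT_D arrays lie at the lower left.

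Mitochondrion-encoded transcripts had differences on both sides of 0. Of 23 probe sets, 9 lay above in both phyA arrays (39.1%, against 20.0% of all probe sets) and 5 below (21.7%, against 19.0%). The share below was thus near that of all probe sets. The median was 0.13 (-0.0011 without phyA_FR), and none passed (2 higher and 2 lower at an unadjusted p under 0.05 by limma). nad4, a subunit of respiratory complex I, had 505.4 and 383.2 in phyA, against 229.4 and 255.7 in WT_D (0.82 ± 0.15, adjusted p = 0.114 and 0.045 with the filter). cox2, a subunit of cytochrome c oxidase, had 45.4 and 44.8 in phyA, against 113.2 and 67.6 in WT_D (-0.77 ± 0.18, adjusted p = 0.213). These 2 genes thus lay on opposite sides with no overlap between groups.

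Small heat-shock proteins, chaperones that hold unfolding proteins in solution, had the lowest group median. None of the 9 measured genes passed in the full table (0 of 9, with 6 lower at an unadjusted p under 0.05 by limma). No p-value with the filter is given for these genes, because AT1G53540 and AT1G52560 had phyA means below its level (5.15 and 4.33, against 5.35) and were kept through the wild-type arrays. Both phyA arrays lay below both WT_D arrays for 6 genes (66.7%, against 19.0% of all probe sets) and above for none. The median difference was -0.82. AT1G53540, a cytosolic class I protein, had 15.7 and 23.6 in phyA, against 341.5 and 118.8 in WT_D (-2.63 ± 0.37, adjusted p = 0.0758). AT2G29500, of the same class, had 31.2 and 40.2 in phyA, against 227.9 and 109.1 in WT_D (-1.76 ± 0.27, adjusted p = 0.0863). Within WT_D, replicate 1 was above replicate 2 for both genes, by a wider margin on the log2 scale than the phyA arrays differed from each other.

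AT1G52560 had 1.0 and 7.9 in phyA, against 70.0 and 26.1 in WT_D (-1.58 ± 0.30, adjusted p = 0.147). AT5G51440, a mitochondrial member, had 41.0 and 42.2 in phyA, against 168.6 and 83.0 in WT_D (-1.23 ± 0.24, adjusted p = 0.147). ATHSP22.0, of the endoplasmic reticulum, and AT1G54050 had differences of -0.82 and -0.80 with no overlap between groups. The 3 remaining members overlapped between groups: AT4G21870, the most strongly expressed, had 719.3 and 809.0 in phyA, against 781.6 and 809.9 in WT_D.

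The level in WT_D itself was uneven and intermediate. The median over the 9 genes of WT_D replicate 1 minus replicate 2 was 0.67, so the median difference of phyA was -1.14 against replicate 1 and -0.57 against replicate 2, the array with norflurazon. AT1G53540 had 1165.5 and 1106.8 on the WT_FR arrays, which had no sucrose, and 24.3 and 33.5 on the gun1gun5_D arrays. The comparison of gun1gun5_D with WT_D uses the same WT_D arrays and gave a median of -0.77 for the 9 genes. Low values were thus found in both mutants, and the levels in wild type ranged from WT_D replicate 2 at the low end to WT_FR at the high end for AT1G53540, AT2G29500, AT1G52560 and AT5G51440.

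**Figure D5:**
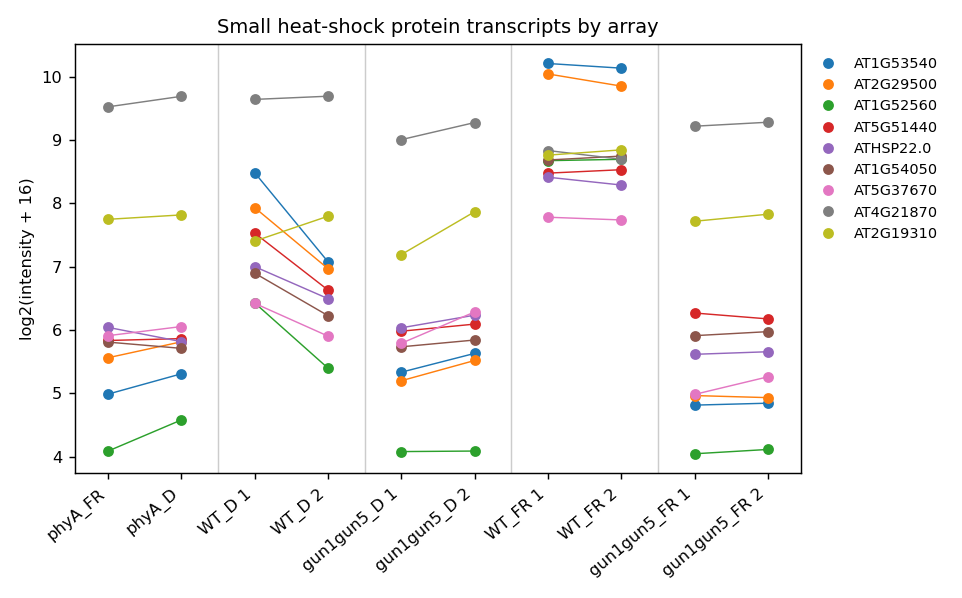
Level of the 9 small heat-shock protein genes (log2(intensity + 16), y axis) on the phyA, WT_D, gun1gun5_D, WT_FR and gun1gun5_FR arrays (x axis), with lines joining the 2 arrays of a group. Most genes are low in phyA and in the gun1gun5 arrays, intermediate and uneven between replicates in WT_D, and high in WT_FR.

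Other chaperones and their partners had smaller differences. None of 7 passed (2 lower at an unadjusted p under 0.05 by limma). Below in both phyA arrays lay 3 (42.9%, against 19.0% of all probe sets), and above lay 1 (14.3%, against 20.0%). The median was -0.17 (-0.0467 without WT_D replicate 1 and -0.29 without replicate 2). Fes1A, a partner of Hsp70, had 97.4 and 119.8 in phyA, against 302.7 and 161.4 in WT_D (-0.94 ± 0.26, adjusted p = 0.269). Hop3, which links Hsp70 to Hsp90, had 29 and 33.1 in phyA, against 65.4 and 50.9 in WT_D (-0.65 ± 0.23, adjusted p = 0.372). AT3G09440, a cytosolic Hsp70 and the most strongly expressed of the list, had 669.0 and 586.0 in phyA, against 827.2 and 682.4 in WT_D (-0.26 ± 0.16, adjusted p = 0.631). Hop1 and Hop2 had differences of 0.07 and 0.04.

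Genes known to be induced by darkness or lack of sugar were examined because sucrose was listed for WT_D and not for phyA. None of 6 passed (3 higher at an unadjusted p under 0.05 by limma). Above in both phyA arrays lay 5 (83.3%, against 20.0% of all probe sets), and the median was 0.33. MCCA and MCCB, the 2 subunits of the enzyme methylcrotonyl-CoA carboxylase that breaks down leucine, had differences of 0.55 ± 0.18 and 0.40 ± 0.12. MCCB had 869.9 and 791.6 in phyA, against 603.0 and 652.0 in WT_D (adjusted p = 0.304). IVD, an earlier enzyme of the same pathway, had 702.1 and 737.1 in phyA, against 528.6 and 543.8 in WT_D (0.41 ± 0.09, adjusted p = 0.181). AKINBETA1, a subunit of the energy-sensing kinase SnRK1, had 669.1 and 616.6 in phyA, against 681.0 and 616.1 in WT_D. The median log2 level of the 6 genes was 9.45 and 9.34 on the phyA arrays, against 8.99 and 9.07 on the WT_D arrays. On the other arrays without sucrose it was 9.98 and 9.85 in gun1gun5_D and 9.30 and 8.90 in WT_FR, so 1 WT_FR array lay above both WT_D arrays and the other below both.

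The lists of starch and storage genes and of sugar transporters had medians close to 0. Pigment synthesis genes are given further below: the 6 flavonoid and anthocyanin genes had a median of -0.21, with all 6 differences below 0. That median was -0.47 without phyA_D and 0.0531 without phyA_FR. Of 5 genes of starch synthesis and related storage, none passed, none had an unadjusted p under 0.05 by limma, and the median was 0.03, with differences of -0.14 to 0.32. SBE2.2, a starch-branching enzyme, had 268.5 and 234.3 in phyA, against 230.2 and 261.0 in WT_D. Of 21 sugar transporters, none passed (1 higher and 3 lower at an unadjusted p under 0.05 by limma). In both phyA arrays 5 lay below (23.8%, near the 19.0% of all probe sets) and 1 above (4.76%, against 20.0%). The median was -0.08, with differences of -0.63 to 0.31. SWEET2, the most strongly expressed transporter, overlapped between groups.

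The phytochrome pathway itself was thinly covered, with 2 named probe sets, neither of which passed or had an unadjusted p under 0.05 by limma. FHL, the carrier that brings phytochrome A into the nucleus, had 28.5 and 25 in phyA, against 20.2 and 24.9 in WT_D (0.15 ± 0.18, adjusted p = 0.851). HYH, a transcription factor that works beside HY5 in light responses, had 141.2 and 225.9 in phyA, against 149.7 and 179.6 in WT_D (0.12 ± 0.27, adjusted p = 0.938). The HYH values of the 2 phyA arrays enclosed both WT_D values.

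Nuclear genes for photosynthesis had small differences. The antenna genes LHCB4.1, LHCB4.2 and LHCB4.3 did not pass (0 of 3, none at an unadjusted p under 0.05 by limma), and LHCB4.1 had 3798.6 and 3443.6 in phyA, against 2956.1 and 3165.0 in WT_D (0.24 ± 0.11, adjusted p = 0.492). All 6 nuclear genes of the photosystems, electron carriers and ATP synthase had a difference above 0, with a median of 0.16 (0.0229 with quantile normalization), and 2 of them had an unadjusted p under 0.05 although none passed. RCA, the activase of Rubisco, had 3420.9 and 3391.4 in phyA, against 2721.1 and 2875.1 in WT_D (0.28 ± 0.10, adjusted p = 0.358). With quantile normalization its difference was 0.0451 and the median of the Calvin cycle list was -0.0240, against 0.12 without it. The same scaling turned the differences of LHCB4.1 and PSAE-1 to -0.0045 and -0.0401, so their direction depends on the scaling.

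The tetrapyrrole pathway, which makes chlorophyll and haem, gave small negative differences. None of 11 genes passed (2 lower at an unadjusted p under 0.05 by limma), and all 11 differences were below 0. Both phyA arrays lay below WT_D for 5 genes (45.5%, against 19.0% of all probe sets). The median was -0.15 (-0.0796 without phyA_D). CHLI2, a subunit of magnesium chelatase, had 120.3 and 95.1 in phyA, against 136.3 and 133.6 in WT_D (-0.29 ± 0.11, adjusted p = 0.405). HEMB1, which joins 2 molecules of the first committed precursor, had 552.5 and 495.3 in phyA, against 621.3 and 596.9 in WT_D (-0.21 ± 0.09, adjusted p = 0.46). CHLM, the most strongly expressed of the list, had 1172.1 and 1253.1 in phyA, against 1183.0 and 1298.6 in WT_D. LYC, a carotenoid cyclase, had 494.3 and 465.1 in phyA, against 509.6 and 550.5 in WT_D (-0.14 ± 0.11, adjusted p = 0.735).

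Some genes split the 2 phyA arrays, which differ in far-red pretreatment. COR27, a cold- and clock-regulated gene, had 165.2 on phyA_FR and 17.6 on phyA_D, against 28.7 and 17.6 on the WT_D arrays. GI, a core clock component, had 206.0 on phyA_FR and 126.3 on phyA_D, against 302.3 and 154.8 on the WT_D arrays. The WT_D replicates also differed from each other in GI, and sampling times are not given in the sources used here. The median difference of these 2 clock genes was 0.31, at -0.46 without phyA_FR and 1.08 without phyA_D. DFR, an enzyme of anthocyanin synthesis, had 58.3 on phyA_FR and 102.3 on phyA_D, against 78 and 117.5 in WT_D. UGT78D2, which glycosylates anthocyanins, had 129.5 on phyA_FR and 171.6 on phyA_D, against 185.0 and 214.5 in WT_D (-0.38 ± 0.13, adjusted p = 0.369). None of the 6 flavonoid genes passed (1 lower at an unadjusted p under 0.05 by limma), and all 6 differences were below 0, with a median of -0.21 (-0.47 without phyA_D and 0.0531 without phyA_FR).

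As markers of the organs in the seedling pools, 9 root genes had summed intensities of 7957.4 and 7732.7 in phyA, against 7567.8 and 6951.3 in WT_D. None passed or had an unadjusted p under 0.05 by limma, and PYK10, a root glucosidase, had 3127.7 and 3268.7 in phyA, against 2587.3 and 2812.9 in WT_D (0.24 ± 0.11, adjusted p = 0.487). A change in the share of root tissue cannot be told apart from a change in RNA per organ in whole seedlings. EXPA9, a cell-wall expansin, had 85.7 and 100.6 in phyA, against 179.9 and 177.6 in WT_D (-0.84 ± 0.14, adjusted p = 0.11 and 0.0388 with the filter), and was named after its values were seen. The WT_FR arrays gave 98.4 and 94.7 for EXPA9, within the range of the phyA arrays. The median of all 28 expansins and xyloglucan enzymes was -0.01.

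Across the 32 lists together, none of 369 distinct probe sets passed, and 57 higher and 31 lower had an unadjusted p under 0.05 by limma (23.8%, against 10.5% of all probe sets). The lists were chosen with earlier results of these data known, so the higher share is not a test of them. The 69 plastid genes alone gave 35 of those higher and 1 of those lower. The medians of the lists not described above lay within 0.2 of 0. These are auxin response (median -0.02), pectin-modifying enzymes (0.09), fatty-acid beta-oxidation and the glyoxylate cycle (-0.01), seed storage and late embryogenesis (0.04), glutathione transferases (-0.01), UDP-glycosyltransferases (0.03), cytochrome P450 (0.04), glucosinolate synthesis (-0.03), defence (-0.02), cell cycle and histones (-0.15), and antioxidant genes (-0.0002). The single measured gene of nitrogen assimilation, NRT2.5, had a difference of 0.01. Of their most strongly expressed members, MSRB6, a methionine sulfoxide reductase, had 691.6 and 849.0 in phyA, against 1162.7 and 966.6 in WT_D (-0.46 ± 0.17, adjusted p = 0.394). GSTL3, IAA18, PMEPCRF, EXGT-A3, ICL, COR47, UGT88A1, CYP71B6, UGT74B1, LCR69 and HTB4 did not pass either.

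Single genes outside the lists were looked at after their values were seen. Groups that did not overlap and differed at least 2-fold were found for 26 probe sets higher in phyA (0.114% of all) and 46 lower (0.202%), of which 11 and 20 have a gene name. Among those on the higher side, AT5G60250, a zinc-finger protein, had 64 and 70.2 in phyA, against 17.4 and 9.3 in WT_D (1.51 ± 0.20, adjusted p = 0.0615). AT3G45730 had 203.8 and 239.1 in phyA, against 81.6 and 94.9 in WT_D (1.19 ± 0.19, adjusted p = 0.104 and 0.0237 with the filter). AT2G29660 had 298.6 and 228.8 in phyA, against 128.0 and 78.5 in WT_D (1.25 ± 0.29, adjusted p = 0.202), with 441.9 and 240.5 in gun1gun5_D. None of these 3 passed in the full table, and that their groups lie apart follows from how they were picked.

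On the lower side, AT2G41730 had 72.8 and 86.2 in phyA, against 382.8 and 190.4 in WT_D (-1.59 ± 0.26, adjusted p = 0.1 and 0.0171 with the filter). Its probe set is of a type that can also bind transcripts of other genes. AT2G04050, a transporter of the MATE family, had 90.8 and 137.7 in phyA, against 277.1 and 270.6 in WT_D (-1.18 ± 0.17, adjusted p = 0.0775 and 0.0135). SBT4.12, a subtilisin-like protease, had 59.7 and 63.4 in phyA, against 164.2 and 127.9 in WT_D (-1.05 ± 0.15, adjusted p = 0.0758 and 0.0135). For AT2G41730 and AT2G04050 the gun1gun5_D arrays were lower than the phyA arrays, at 51.7 and 48.8 and at 50.6 and 40.3. For SBT4.12 they lay between the groups, at 98.5 and 95.7. The WT_FR arrays gave 61.4 and 71 for SBT4.12, so a level near that of phyA was also seen in wild type.

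AT1G06000, a flavonol glycosyltransferase, had 26.7 and 56.2 in phyA, against 116.7 and 95.4 in WT_D (-1.13 ± 0.27, adjusted p = 0.213). CHIL, a chalcone isomerase-like protein of the same pathway, had 61.4 and 132.8 in phyA, against 196.2 and 242.3 in WT_D (-1.13 ± 0.32, adjusted p = 0.273). In both, phyA_FR was the lowest of the 4 arrays and phyA_D stood between it and WT_D. RTE1, a regulator of an ethylene receptor, had 49.2 and 44.5 in phyA, against 91.1 and 83.6 in WT_D (-0.72 ± 0.12, adjusted p = 0.104 and 0.0388 with the filter). Neither phyA array reached the lowest value of any other group for RTE1, which was 62.1 on a WT_FR array.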

How the data were processed

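RNA of 10 seedling pools was measured on 1-colour ATH1 arrays. The authors deposited linear probe-set intensity values (series matrix), and every array has a 2% trimmed mean of about 100. The summarisation software is not given in the sources used here. Probe sets were named from GEO's platform annotation and RefSeq (TAIR10.1): of 22810, 13513 had 1 gene, 503 several, 64 were controls and 8730 were unlisted.

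Values were transformed to log2(value + 16) and fitted with limma 3.58.1 in R 4.3.3 (lmFit, eBayes with trend, two-sided) over all 10 arrays with 5 group means, phyA_FR and phyA_D sharing one (5 residual, 3.4 prior degrees of freedom), without a filter. The test was checked on simulated data. Named genes were to be the 12 highest and 12 lowest single-gene probe sets that passed with groups apart, and per list the 2 largest that passed or else the most strongly expressed. Other named genes were chosen after their values were seen. The comparison, the lists and their members were chosen with earlier results of these data known. The replicate numbers were not taken to pair the arrays. Alternatives changed the pseudocount, scaling, filter, trend, arrays and grouping.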

Additional observations from a re-analysis of the deposited data

How the results depend on the processing

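The count of 8 probe sets (4 higher, 4 lower) differed by less than 1.5 times with a pseudocount of 1 (11), no variance trend (7) and the replicate number as a block (6), where the number lower was 7, 2 and 2. Of the 8 themselves, 7, 4 and 6 passed there. A pseudocount of 64 gave 23 (15 higher, 8 lower) and quantile normalization 15 (8 higher, 7 lower). The filter at the 40th percentile gave 61 (22 higher, 39 lower), at the 60th 46 (14 higher, 32 lower), and the 40th with 6 group means, added after the data were seen, 49 (18 higher, 31 lower). Only the 4 arrays compared gave 1 (0 higher, 1 lower), and 6 group means gave 4 (2 higher, 2 lower). Leaving out 1 array gave 4 to 42 probe sets, 2 to 6 higher and 1 to 36 lower. The highest came without WT_D replicate 2. The causes were not tested. All 8 kept their direction wherever tested. Their groups did not overlap, so only quantile normalization and the replicate block could have turned it. AT5G01010 no longer passed in 7 of 14 alternatives, with an adjusted p of 0.0135 to 0.352. The median of the plastid genes was 0.25 to 0.42 and that of the small heat-shock genes -1.14 to -0.52 over the alternatives.

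Signs near 0 turned for genes that never passed. With quantile normalization LHCB4.1 gave -0.0045, PSAE-1 -0.0401, atpB -0.0869, ndhI -0.0197 and EXGT-A3 -0.0304. With the replicate block NRT2.5 gave -0.0194, UGT74B1 0.0532 and LCR69 -0.0253. Leaving out single arrays turned HYH (-0.196 to 0.426), SBE2.2 (-0.0612 to 0.124), GI (-0.841 to 0.0574), COR47 (-0.277 to 0.149), NRT2.5 (-0.0978 to 0.121), UGT74B1 (-0.179 to 0.126), LCR69 (-0.152 to 0.425), CHLM (-0.0984 to 0.0344), SWEET2 (-0.237 to 0.0180), HTB4 (-0.00205 to 0.197), AT4G21870 (-0.142 to 0.0236), IAA18 (-0.137 to 0.000165), EXGT-A3 (-0.0133 to 0.163), PMEPCRF (-0.504 to 0.0433), ndhI (-0.0688 to 0.307) and ICL (-0.687 to 0.0228).

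The phyA arrays both have replicate number 1, so the numbers cannot pair phyA with WT_D. In the other groups the correlation of replicate 1 minus replicate 2 between groups was 0.05 to 0.14, and the block gave 4 higher and 2 lower. Values under 16 limit folds.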
